A study of Hordeum vulgare with 64 samples.

Results

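The comparison covers barley roots after 2 weeks (2 w) of waterlogging and the roots of untreated seedlings, in 2 varieties: TX (TX9425), which tolerates waterlogging, and NN (Naso Nijo), which is sensitive to it. Its members are the root libraries labelled TX 2 w, TX control, NN 2 w and NN control, with 2 replicate libraries in each group, so 8 libraries of the 64 in the series. The other 56 libraries come from leaves, from earlier waterlogging times and from a separate salt experiment. Seedlings of both varieties were raised in the same pot to the stage with 3 leaves and then stood under tap water that covered the soil. The control roots carry a time of 0 h in the labels and no control root of the same age as the 2 w roots was analysed here, so 2 weeks of growth and 2 weeks of waterlogging cannot be told apart in any value below. The study's methods speak of 3 replicates where the labels give 2, and nothing states that the 2 libraries of a group came from separate plants or pots, so the p-values cover only how far these libraries scatter, and that scatter may be technical.

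When soil is flooded, oxygen reaches roots only slowly, because gases diffuse far less well through water than through air. Plant roots are known to answer with fermentation in place of respiration, with accumulation of the gas hormone ethylene, and over days with air channels in the cortex (aerenchyma) and with new roots that grow out of the shoot base. Cereal varieties differ in how early and how far they form such air channels. The root RNA values here carry only barley feature identifiers. Of 43050 identifiers, 0 matched the gene annotation used here, so the genes of fermentation, ethylene and aerenchyma could not be picked out and the rows are described by their levels, their behaviour and the chromosome written in the identifier (1H to 7H, or 0H where none is assigned). HvMADS14 is named because its identifier stands beside its name in the study's text. It belongs to the MADS-box transcription factors, a family known for control of flowering and floral organs.

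Values were FPKM, the fragments assigned to a feature, scaled by the feature's length and by the fragments in the library. Each row was tested on log2(FPKM + 1) with limma, in 1 fit over the 16 waterlogging root libraries, over the 22022 rows that reached 0.5 FPKM in 2 or more of them. A row was called where its adjusted p (Benjamini-Hochberg) was under 0.05 and its log2 change was beyond 1. A fold change on this scale understates the change of rows with low levels.

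The 8 libraries read as roots. The labels' tissue was checked with 75 rows that the salt experiment's untreated plants showed at 10 FPKM or more in every root and at 0.1 or less in every leaf, and with 87 rows of the reverse kind. The root rows had medians of 9.63 to 23.2 FPKM in the 8 libraries, and at most 0.0536 FPKM in the control leaves of the waterlogging experiment. The leaf rows had medians of 0 to 0.0176 FPKM in the 8 root libraries, against 25.4 to 35.8 FPKM in those control leaves. Rows that mark one variety also followed the labels: 24 rows read in unstressed TX alone included 19 to 22 at 0.5 FPKM or more in each TX library and 0 in each NN library, and 16 rows read in unstressed NN alone included 0 at that level in each TX library and 12 to 15 in each NN library. The depth is not given. From the most common ratio between values under 0.3 FPKM, the libraries held between 0.94 and 1.35 times the fragments of NN control replicate 1.

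The control replicates did not lie equally far from the 2 w roots. In TX, control replicate 1 correlated with the 2 w libraries at 0.926 and 0.937 and control replicate 2 at 0.863 and 0.884, over the tested rows, which are not independent replicates. In NN the values were 0.919 and 0.928 for control replicate 1, and 0.88 and 0.885 for control replicate 2. Replicates of 1 group correlated at 0.965 in TX 2 w, 0.948 in TX control, 0.975 in NN 2 w and 0.955 in NN control. Among rows that averaged 1 FPKM or more, 7.96% differed by more than 1 on the log2 scale between the TX 2 w replicates, 11.5% between the TX controls, 3.78% between the NN 2 w replicates and 10.1% between the NN controls. The spread was therefore wider in control roots than in 2 w roots in both varieties.

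After 2 w, the roots of both varieties had changed in about 1 row in 10. In TX, 2239 rows were called (10.2% of the rows tested), 1130 higher (5.13%) and 1109 lower (5.04%) in 2 w roots than in control roots. In NN, 2413 rows were called (11% of the rows tested), 919 higher (4.17%) and 1494 lower (6.78%). These counts depended on single libraries. Without TX control replicate 1 the TX count was 3948, without TX control replicate 2 it was 597, and without TX 2 w replicate 1 it was 1066. Without NN control replicate 2 the NN count was 1050, and without NN 2 w replicate 1 it was 1127. With both varieties read against control replicate 1 alone, an alternative chosen after seeing the data, 935 rows were called in TX and 1592 in NN. With the 8 libraries alone in the fit, 639 rows were called in TX and 1053 in NN.

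The balance of higher and lower rows depended on how the libraries were put on a common scale. In the deposited FPKM, the median log2 change over all rows tested was -0.13 in TX and -0.22 in NN, so most rows read slightly lower at 2 w. The 1000 most abundant rows of each library held 52.9% and 54.6% of the FPKM sum in TX 2 w, against 53.3% and 49.5% in TX controls, and 54.5% and 54.5% in NN 2 w, against 48.6% and 47.4% in NN controls. Rows at 100 FPKM or more numbered 833 and 780 in TX 2 w against 732 and 739 in TX controls, and 812 and 875 in NN 2 w against 764 and 764 in NN controls. Rows at 1 FPKM or more numbered 16066 and 15900 in TX 2 w against 16290 and 16410 in TX controls, and 15975 and 16113 in NN 2 w against 16929 and 16689 in NN controls. So in NN more of the signal sat in fewer rows at 2 w, with no overlap between the groups in any of the 3 measures, and in TX the share of the 1000 most abundant rows overlapped.

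When each library was divided by the median ratio of its rows to the mean of all 16, the shift of the median was removed (0.02 in TX and 0 in NN). On this scale 1592 rows (7.24%) were higher and 605 (2.75%) lower in TX, which put 72.5% of the calls on the higher side, against 50.5% without scaling. In NN 1458 rows (6.63%) were higher and 621 (2.82%) lower, which put 70.1% on the higher side, against 38.1% without scaling. Nearly all rows called higher without scaling were also called higher with it, 1130 of 1130 in TX and 917 of 919 in NN. Of the rows called lower without scaling, 604 of 1109 in TX and 621 of 1494 in NN were also called lower with it. The direction of the larger group of calls in NN therefore turned round with the scale. Which scale is the better one for these roots was not tested, and the rows described next were called on both.

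**Figure D1:**
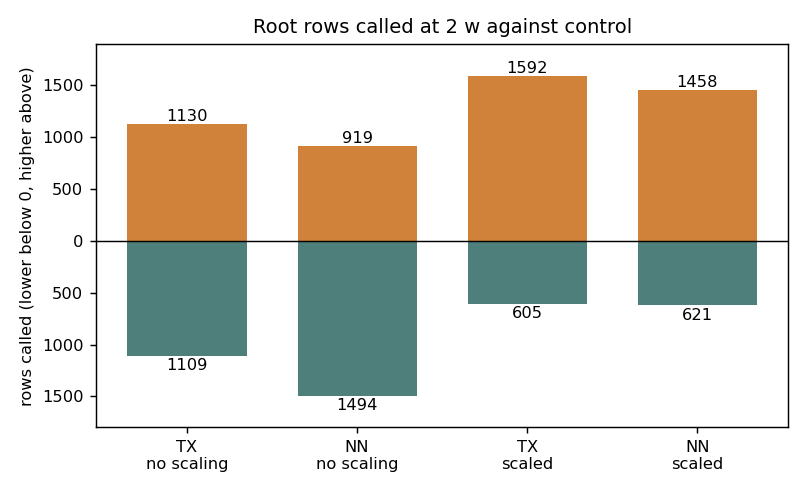
Number of rows called higher (above 0) and lower (below 0) in 2 w roots than in control roots, for TX and NN, in the deposited FPKM and after median-ratio scaling. The TX bars were 1130 and 1109 without scaling and 1592 and 605 with it, and the NN bars 919 and 1494 without scaling and 1458 and 621 with it.

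Grouped by mean level over the 8 libraries, the most abundant rows were called higher more often than lower without scaling. The same libraries gave the levels and the calls, so a row can enter the highest class through its 2 w values alone. The shares and medians by level are therefore a description. Among the 320 rows that averaged over 200 FPKM in the 8 libraries, 13.8% were called higher and 1.88% lower in TX, and 13.1% were called higher and 2.81% lower in NN. Among the 7239 rows between 2 and 10 FPKM, 5.83% were called higher and 8.1% lower in TX, and 4.6% higher and 10.8% lower in NN. The 7689 rows under 2 FPKM did not continue this order, with 2.71% called higher and 2.11% lower in TX and 2.37% higher and 3.3% lower in NN, and with median log2 changes of -0.06 in TX and -0.13 in NN without scaling. The median log2 change of the 7239 rows of 2 to 10 FPKM was -0.25 in TX and -0.38 in NN without scaling, and -0.05 in TX and -0.09 in NN with it. For the rows over 200 FPKM it was 0.02 in TX and 0.15 in NN without scaling, and 0.27 in TX and 0.51 in NN with it. On both scales the median was thus higher in the most abundant rows than in the rows of 2 to 10 FPKM. The most abundant row of the NN 2 w roots, a row of chromosome 1H, had 7893 and 4516 FPKM in NN 2 w roots against 586 and 646 FPKM in NN controls, and 31.5 and 67.1 FPKM in TX 2 w roots against 14.5 and 2.79 FPKM in TX controls. It was called higher in both varieties (log2 change 2.62, adjusted p = 0.015 in TX and 3.28, adjusted p = 0.00503 in NN, limma). Its level in NN was far above that in TX in both conditions, with no overlap, and its change did not differ between varieties by the test (TX minus NN -0.66, adjusted p = 1, limma).

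The same rows tended to be called in both varieties. Their libraries are separate, but the differences between control replicates 1 and 2 were correlated between TX and NN (0.39 over the tested rows). Both varieties also shared 1 estimate of the spread in the fit, so the calls in TX and NN are not independent. Without scaling, 562 rows were called higher in both, which was 49.7% of the 1130 rows called higher in TX and 61.2% of the 919 called higher in NN. These were 2.55% of the rows tested. A further 714 rows were called lower in both (3.24% of the rows tested), 64.4% of those in TX and 47.8% of those in NN. In opposite directions, 2 rows were called higher in TX and lower in NN, and 0 rows the other way. All 562 rows higher in both were also called higher in both with scaling, and 308 of the 714 rows lower in both were also called lower in both with it (1.4% of the rows tested). The 562 and the 308 rows form the lists of rows that rose and fell in both varieties.

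The lists were large and only part of them held in every subset of the libraries. With each of the 8 libraries left out in turn, 192 to 511 of the 562 rows that rose and 144 to 300 of the 308 rows that fell were still called in both varieties without scaling. The fewest were called without TX control replicate 2, the replicate farther from the 2 w roots. The list of rows that rose held 198 rows when rebuilt without that library, 286 without TX 2 w replicate 1, 282 without NN 2 w replicate 1 and 251 without NN control replicate 2. The list of rows that fell held 147, 200, 177 and 146 rows when rebuilt in the same 4 ways. Called in all 8 of these fits were 115 of the rows that rose and 121 of those that fell. The 115 rows had a median log2 change of 2.40 in TX and 2.46 in NN, and the 121 rows -1.75 in TX and -1.87 in NN. The median of the 115 rows was 24.2 and 22.8 FPKM in TX 2 w roots against 2.24 and 0.856 FPKM in TX controls, and 30.9 and 27.0 FPKM in NN 2 w roots against 2.13 and 1.15 FPKM in NN controls. The median of the 121 rows was 1.71 and 1.74 FPKM in TX 2 w roots against 8.68 and 11.1 FPKM in TX controls, and 1.70 and 1.54 FPKM in NN 2 w roots against 9.92 and 11.4 FPKM in NN controls.

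Most changes in the lists were of modest size. The median log2 change of the 562 rows that rose was 1.82 in TX and 1.76 in NN, and that of the 308 rows that fell was -1.64 in TX and -1.72 in NN, against -0.13 in TX and -0.22 in NN over all rows tested. Taking for each row the smaller of its changes in TX and NN, 164 of the 562 rows rose by more than 2 on the log2 scale, 61 by more than 3 and 21 by more than 4. Of the 308 rows that fell, 65 fell by more than 2, 11 by more than 3 and 3 by more than 4. Rises beyond 2, 3 and 4 were thus more numerous than falls of that size. The mean level of the rows that rose had a median of 16.4 FPKM at 2 w against 2.65 FPKM in controls, and that of the rows that fell a median of 1.8 FPKM at 2 w against 9.71 FPKM in controls.

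**Figure D2:**
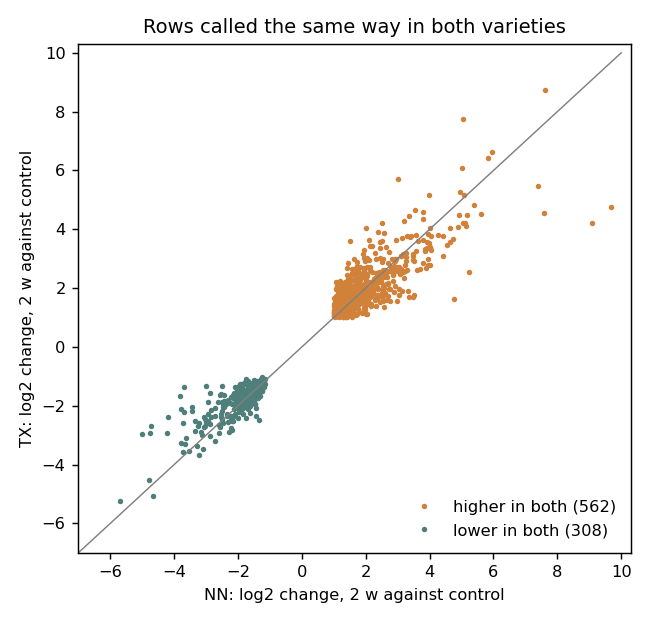
Log2 change of 2 w against control roots in NN (horizontal axis) and TX (vertical axis) for the 562 rows called higher and the 308 rows called lower in both varieties, 1 point a row, with the line of equal change. The rows that rose extended to a change of 8.72 in TX and 9.67 in NN, and the rows that fell to -5.25 in TX and -5.68 in NN.

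Of the rows that rose in both varieties, HORVU2Hr1G104100 on chromosome 2H and HORVU5Hr1G021390 on chromosome 5H had the largest smaller change. HORVU2Hr1G104100 had 683 and 401 FPKM in TX 2 w roots against 0.198 and 0.289 FPKM in TX controls, and 609 and 846 FPKM in NN 2 w roots against 10.9 and 0.13 FPKM in NN controls. The 4 libraries at 2 w lay far above the 4 controls, and the NN controls differed widely from each other. The log2 change was 8.72 ± 1.00 in TX (SE, adjusted p = 0.00115) and 7.61 ± 1.00 in NN (adjusted p = 0.00132, limma). Without the low NN control, replicate 2, the NN change was 5.91, and without the high one, replicate 1, it was 9.31.

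HORVU5Hr1G021390 had 161 and 713 FPKM in TX 2 w roots against 2.24 and 2.73 FPKM in TX controls, and 587 and 277 FPKM in NN 2 w roots against 5.81 and 5.27 FPKM in NN controls. Its controls were close together and its 2 w replicates differed more, most in TX. The log2 change was 6.61 ± 0.567 in TX (SE, adjusted p = 0.000292) and 5.95 ± 0.567 in NN (adjusted p = 0.000266, limma). Neither row had a TX minus NN difference that passed the test (1.11 and 0.66, adjusted p = 1 for both, limma).

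Both rows had other courses before 2 w. HORVU2Hr1G104100 in TX averaged 0.243 ± 0.064 FPKM in controls, 11.9 ± 6.22 at 1 h, 70.0 ± 8.93 at 72 h and 542 ± 199 at 2 w, and in NN 5.53 ± 7.63, 26.1 ± 6.99, 23.5 ± 26.3 and 728 ± 168 FPKM at the same times (SD, n = 2 each). Its highest levels were at 2 w in both varieties. HORVU5Hr1G021390 in TX averaged 2.48 ± 0.347 FPKM in controls, 4.0 ± 2.11 at 1 h, 1073 ± 108 at 72 h and 437 ± 390 at 2 w, and in NN 5.54 ± 0.378, 3.49 ± 0.888, 1491 ± 167 and 432 ± 219 FPKM at the same times (SD, n = 2 each). Its highest levels were at 72 h, and the 2 w libraries lay below all 72 h libraries in both varieties.

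Of the rows that fell in both varieties, HORVU3Hr1G112020 and HORVU3Hr1G002540, both on chromosome 3H, had the largest smaller change. HORVU3Hr1G112020 had 0.663 and 0.695 FPKM in TX 2 w roots against 24.6 and 159 FPKM in TX controls, and 6.05 and 4.37 FPKM in NN 2 w roots against 209 and 473 FPKM in NN controls. In each variety control replicate 1 was the lower of the controls, and both were far above the 2 w roots. Untreated roots of the salt experiment, normalized apart, had only 0.352 and 0 FPKM in TX and 8.29 and 7.49 FPKM in NN. These lay far below the controls here and close to the 2 w levels, and the reason was not tested. The log2 change was -5.25 ± 0.657 in TX (SE, adjusted p = 0.00166) and -5.68 ± 0.657 in NN (adjusted p = 0.000694, limma), and without TX control replicate 2 the TX change was -3.93.

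HORVU3Hr1G002540 had 2.92 and 6.57 FPKM in TX 2 w roots against 148 and 225 FPKM in TX controls, and 2.33 and 1.58 FPKM in NN 2 w roots against 57.5 and 93.1 FPKM in NN controls. The groups were far apart in both varieties. Untreated roots of the salt experiment were again lower than these controls, with 7.58 and 4.02 FPKM in TX and 20.9 and 20.9 FPKM in NN. The log2 change was -5.07 ± 0.387 in TX (SE, adjusted p = 0.000125) and -4.66 ± 0.387 in NN (adjusted p = 0.000106, limma). It was already low at the first time sampled, with 20.0 ± 1.54 FPKM in TX and 8.13 ± 0.413 FPKM in NN at 1 h (SD, n = 2 each). HORVU3Hr1G112020 averaged 5.3 ± 0.138 FPKM in TX and 105 ± 41.5 FPKM in NN at 1 h, and 0.917 ± 0.348 FPKM in TX and 26.7 ± 2.03 FPKM in NN at 72 h.

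**Figure D3:**
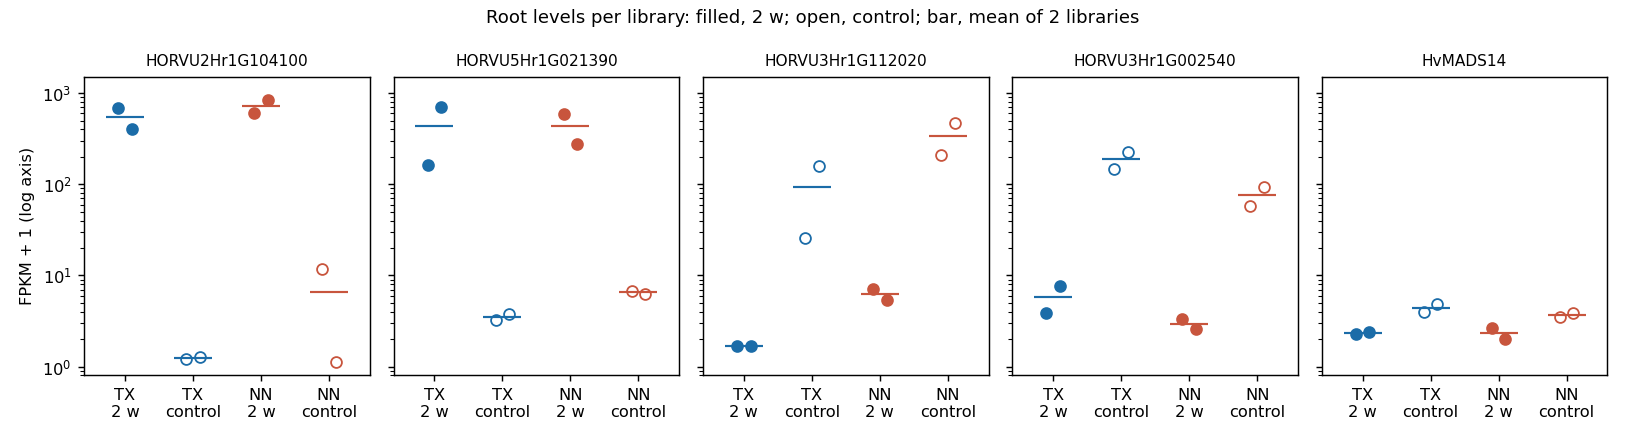
FPKM + 1 on a log axis in each root library for the 4 identifiers and for HvMADS14, with TX in blue, NN in red, 2 w filled, control open and a bar at the mean of each pair of libraries. The first 2 identifiers were higher and the next 2 lower in every 2 w library than in every control library of the same variety, and HvMADS14 stayed under 4 FPKM in all 8 libraries.

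Behind these 4, the next rows of each list were ranked by the smaller of their changes in TX and NN. A row of lower rank can therefore have changed more in one of the varieties. The row ranked 3 among those that rose, on chromosome 1H, had 158 and 587 FPKM in TX 2 w roots against 8.24 and 0.352 FPKM in TX controls, and 689 and 549 FPKM in NN 2 w roots against 35.4 and 2.25 FPKM in NN controls. In both varieties its control replicate 1 was more than 10 times control replicate 2. The row ranked 3 among those that fell, on chromosome 2H, had 3.62 and 3.51 FPKM in TX 2 w roots against 70.6 and 156 FPKM in TX controls, and 3.09 and 1.43 FPKM in NN 2 w roots against 94.8 and 77.5 FPKM in NN controls. Among the rows that rose in both varieties, the largest rise in NN was that of a row of chromosome 2H. It had 19.2 and 149 FPKM in TX 2 w roots against 2.88 and 0.0699 FPKM in TX controls. In NN it had 1183 and 662 FPKM in 2 w roots against 0.18 and 0 FPKM in controls. Its log2 change was 4.76 in TX and 9.67 in NN, and the test of TX minus NN did not call it. These rows were chosen after their values were seen.

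Few rows were nearly silent in one condition and clearly read in the other in all 8 libraries. At most 0.5 FPKM in all 4 controls and at least 5 FPKM in all 4 libraries at 2 w was met by 2 rows, 1 each of chromosomes 2H and 3H, and the reverse by 1 row of chromosome 5H. The 2H row had 7.95 and 30.2 FPKM in TX 2 w roots against 0.262 and 0.0572 FPKM in TX controls, and 25.7 and 14.0 FPKM in NN 2 w roots against 0.369 and 0.207 FPKM in NN controls. The 5H row had 0.11 and 0.0667 FPKM in TX 2 w roots against 5.82 and 10.1 FPKM in TX controls, and 0.439 and 0.293 FPKM in NN 2 w roots against 6.41 and 18.2 FPKM in NN controls. A single library could drop a row from this count, as NN control replicate 1 did for HORVU2Hr1G104100 (10.9 FPKM). The mean control level of the rows that rose had a lower quartile of 0.767 FPKM. The count therefore does not show how many of the changed rows were near silence in control roots.

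Some neighbours on a chromosome were in the same list. Of 537 rows that rose and carry a chromosome, 87 (16.2%) stood next to another row of the list in the order of tested identifiers, against 5.02% of all those identifiers that stood next to a row of the list. Of 302 rows that fell, 26 (8.61%) stood next to another, against 2.84% of all those identifiers. The longest stretch was of 5 rows of chromosome 4H that all rose, by 2.99 to 6.07 in TX and by 3.96 to 5.01 in NN on the log2 scale. The most abundant of the 5 had 517 and 110 FPKM in TX 2 w roots against 19.8 and 24.3 FPKM in TX controls, and 402 and 626 FPKM in NN 2 w roots against 17.7 and 49.9 FPKM in NN controls. In all 5 rows TX 2 w replicate 1 was several times replicate 2. A stretch of 4 rows of chromosome 2H fell together, by 1.51 to 2.6 in TX and by 1.24 to 2.47 in NN on the log2 scale. The most abundant of the 4 had 64.0 and 78.2 FPKM in TX 2 w roots against 281 and 345 FPKM in TX controls, and 45.5 and 73.2 FPKM in NN 2 w roots against 238 and 220 FPKM in NN controls. Neighbouring genes can be near-identical copies that share reads, and the part of shared reads in these stretches was not tested. Over whole chromosomes, 2H held 21.9% of the rows that fell and 17.0% of those tested, 4H held 15.6% of the rows that rose and 12.2% of those tested, and 3H held 18.2% of the rows that rose and 15.7% of those tested.

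The lists had not moved alike by the earlier times. The rows that rose had median log2 changes of 0.73 at 1 h, 0.8 at 72 h and 1.82 at 2 w in TX, and of 0.59, 0.28 and 1.76 at the same times in NN. The rows that fell had -0.46, -1.20 and -1.64 in TX, and -0.51, -1.46 and -1.72 in NN. All 3 times were set against the same controls and the rows were chosen at 2 w, so the values stand side by side as a description. In levels, the rows that rose had medians of 3.02 and 1.33 FPKM in TX controls, 6.2 and 5.61 at 1 h, 5.15 and 5.4 at 72 h and 16.3 and 13.6 at 2 w. In NN they had 3.58 and 1.7 FPKM in controls, 5.91 and 7.27 at 1 h, 3.4 and 5.1 at 72 h and 18.0 and 15 at 2 w. The rows that fell had medians of 6.59 and 10.4 FPKM in TX controls, 6.06 and 7.26 at 1 h, 3.21 and 3.39 at 72 h and 1.71 and 1.75 at 2 w, and in NN 8.5 and 11.0, 6.68 and 6.49, 3.09 and 3.31, and 1.66 and 1.76 FPKM. The falling rows were lower at each later time, apart from TX 1 h replicate 2, which lay above TX control replicate 1, and the rising rows stood at 1 h and 72 h between control and 2 w, apart from NN 72 h replicate 1, which lay below NN control replicate 1. Control replicate 1 was the one nearer to the 2 w level in both lists and both varieties.

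**Figure D4:**
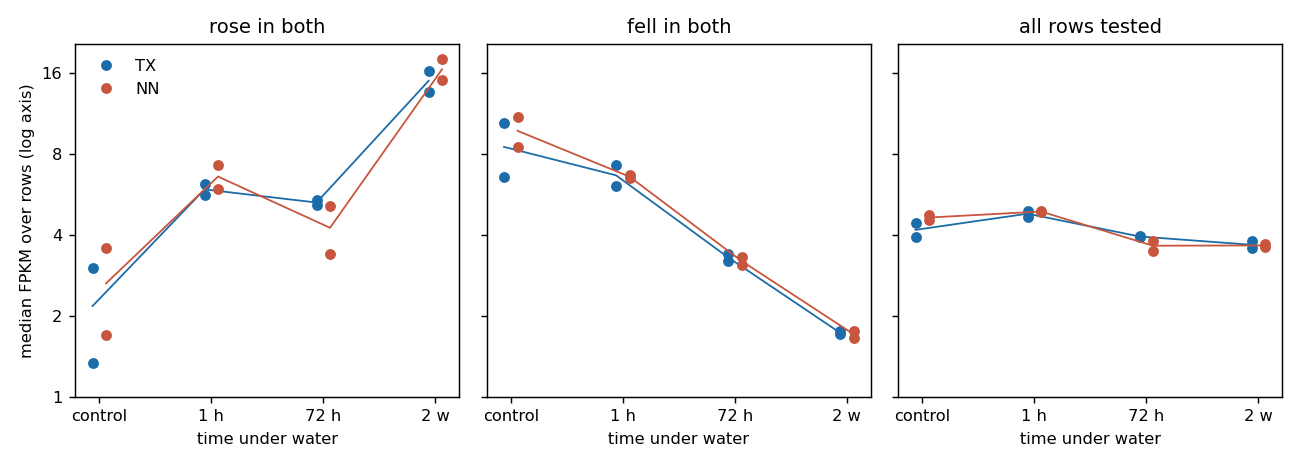
Median FPKM (log axis) over the 562 rows that rose in both varieties, the 308 rows that fell in both and all 22022 rows tested, in each root library at control, 1 h, 72 h and 2 w, with TX in blue, NN in red and lines through the mean of each pair of libraries. The first list lay at 13.6 to 18.0 at 2 w and at 1.33 to 3.58 in controls, the second at 1.66 to 1.76 at 2 w and at 6.59 to 11.0 in controls.

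Many rows of both lists were also read in leaves, though a smaller share than among all rows tested. Their mean level in untreated leaves of the waterlogging experiment reached 1 FPKM for 59.8% of the rows that rose, 53.2% of those that fell and 66.8% of all rows tested. The median level in those leaves was 2.24 FPKM for the rows that rose, 1.33 FPKM for the rows that fell and 2.87 FPKM for all rows tested.

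Rows called in one variety alone mostly moved the same way in the other. The 566 rows called higher in TX alone had a median log2 change of 1.38 in TX and 0.72 in NN, and 88.7% of them were above 0 in NN. The 357 rows called higher in NN alone had a median of 0.8 in TX and 1.46 in NN, and 94.4% were above 0 in TX. The 395 rows called lower in TX alone had a median of -1.14 in TX and -0.85 in NN, and the 778 called lower in NN alone had -0.77 in TX and -1.23 in NN. Of these 4 sets, 2, 10, 2 and 10 rows were called in the direct test of TX minus NN change. Over all 22022 rows that test called 25 (0.114%), so nearly all of its calls were in these sets. The sets were themselves chosen for a call in one variety only. Even so, a call in one variety alone was seldom a difference between varieties that passed its own test.

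That direct test called 25 of 22022 rows (0.114%), 13 with TX minus NN above 0 and 12 with it below 0. An unadjusted p under 0.05 was met by 1142 rows, close to the share that this limit passes where no row differs. With scaling 30 rows (0.136%) were called, 23 of them the same. None of the 562 and 308 rows of the lists was among the 25. Those rows were chosen for calls in the same direction in both varieties, which works against a call here. Nothing is concluded from their absence. The count was 12 without TX control replicate 2, 52 without TX control replicate 1, 39 without TX 2 w replicate 1, 11 without NN 2 w replicate 2, 41 without NN control replicate 2 and 38 without NN control replicate 1. It was 0 with a pseudocount of 0.1 and 0 with the 8 libraries alone in the fit, where 1030 and 721 rows had an unadjusted p under 0.05. Both of these were below the share passed where no row differs. Of the 25 rows, 5 were called in every fit that left out 1 of the 8 libraries.

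Most of the 25 rows were hardly read in one variety at all. In 16 of them all 4 TX libraries were at 0.25 FPKM or less, and in 2 of them all 4 NN libraries were. Among all rows tested, 2.51% were at or under that level in TX alone and 2.02% in NN alone. A row of chromosome 5H was listed at 0 in all 4 TX libraries, and had 2.26 and 0.927 FPKM in NN 2 w roots against 37.0 and 29.6 FPKM in NN controls. A row of 7H had at most 0.0097 FPKM in TX, and 2.94 and 1.52 FPKM in NN 2 w roots against 20.2 and 20.9 FPKM in NN controls. A row of 3H was listed at 0 in all 4 TX libraries, and had 20.3 and 26.8 FPKM in NN 2 w roots against 1.44 and 0.724 FPKM in NN controls. In the opposite case, a row of 7H listed at 0 in all 4 NN libraries had 2.18 and 3.24 FPKM in TX 2 w roots against 0 and 0 FPKM in TX controls. For these 18 rows the test compares a change in one variety with values at or near 0 in the other.

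In 7 of the 25 rows both varieties were read. A row of 4H had 37.7 and 41.7 FPKM in TX 2 w roots against 56.1 and 104 FPKM in TX controls, and 500 and 634 FPKM in NN 2 w roots against 155 and 189 FPKM in NN controls. TX minus NN was -2.65 ± 0.422 on the log2 scale (SE, adjusted p = 0.0481, limma). A row of 6H moved in opposite directions, with 10.8 and 13.5 FPKM in TX 2 w roots against 5.97 and 5.31 FPKM in TX controls, and 7.81 and 6.16 FPKM in NN 2 w roots against 15.8 and 13.1 FPKM in NN controls, without overlap within either variety. TX minus NN was 1.94 ± 0.258 (SE, adjusted p = 0.017, limma), and neither variety's own change passed the limit of 1. Another row of 6H had 7.78 and 9.0 FPKM in TX 2 w roots against 0.13 and 0.0541 FPKM in TX controls, and 0.503 and 0.677 FPKM in NN 2 w roots against 0 and 0 FPKM in NN controls, with TX minus NN at 2.43 ± 0.237 (SE, adjusted p = 0.0056, limma). It was the 1 row of these 7 among the 5 called in every fit that left out a library.

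**Figure D5:**
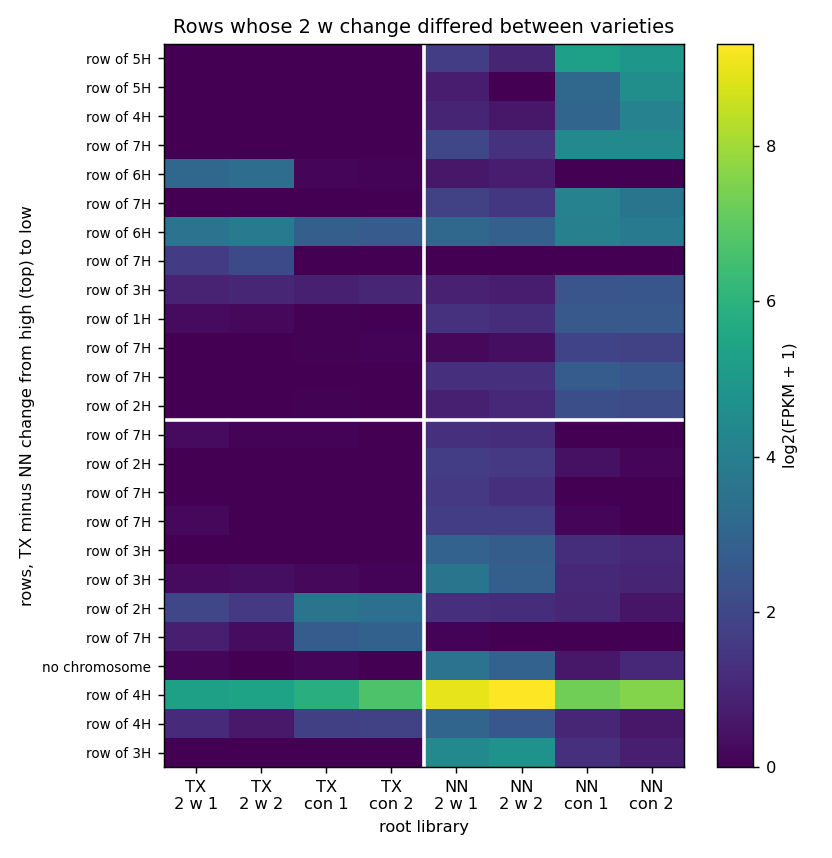
Log2(FPKM + 1) in each of the 8 root libraries (columns, TX left and NN right, 2 w before control) for the 25 rows whose change differed between varieties, from the highest to the lowest TX minus NN change. In 16 rows the 4 TX columns are at 0.25 FPKM or less, and in 2 rows the 4 NN columns are.

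The 2 rows called in opposite directions were not among the 25. A row of 3H had 5.38 and 5.09 FPKM in TX 2 w roots against 2.31 and 1.6 FPKM in TX controls, and 3.4 and 2.76 FPKM in NN 2 w roots against 7.33 and 8.03 FPKM in NN controls (TX minus NN 2.18 ± 0.368, SE, adjusted p = 0.0626, limma). A row with no chromosome had 20.9 and 29.1 FPKM in TX 2 w roots against 9.9 and 13.6 FPKM in TX controls, and 14.8 and 12.6 FPKM in NN 2 w roots against 32.4 and 37.0 FPKM in NN controls (TX minus NN 2.3 ± 0.398, SE, adjusted p = 0.0715, limma). Within each variety the groups did not overlap in either row, and neither call held with scaling in both varieties.

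Set against each other directly, the varieties differed at 2 w in 531 rows (2.41%), 250 higher and 281 lower in TX, and in controls in 634 rows (2.88%), 252 higher and 382 lower in TX. These comparisons share no library. Of the rows higher in TX, 167 were called at both times, 66.8% of those at 2 w and 66.3% of those in controls. Of the rows lower in TX, 185 were called at both times, 65.8% of those at 2 w and 48.4% of those in controls, and 0 rows were called in opposite directions.

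The rows of the lists were also read in the salt experiment, whose roots after 10 days had their own controls and were normalized in a table of their own. Of the rows that rose at 2 w of waterlogging, 553 were tested there. In TX salt roots 16 of them (2.89%) were called higher and 11 (1.99%) lower, against 2.25% and 1.27% of all rows tested in that table, and in NN salt roots 111 (20.1%) were called higher and 150 (27.1%) lower, against 9.76% and 13.5%. Of 307 rows that fell, 18 (5.86%) were called higher and 7 (2.28%) lower in TX salt roots, and 16 (5.21%) higher and 105 (34.2%) lower in NN salt roots. In NN the rows that fell under water were thus mostly lower where they were called under salt, and the rows that rose under water were called in both directions. TX salt replicates correlated at only 0.839 at 10 days and 0.866 in controls, against 0.981 and 0.985 in NN, and the part of this spread in the TX counts was not tested. The 4 identifiers named above went different ways under salt. HORVU2Hr1G104100 had 50.8 and 0.475 FPKM in TX salt roots against 5.01 and 0.537 FPKM in their controls, and 0.342 and 0.421 FPKM in NN salt roots against 1.85 and 1.86 FPKM in theirs. HORVU5Hr1G021390 had 91.7 and 10.6 FPKM in TX salt roots against 6.1 and 12.6 FPKM in their controls, and 8.92 and 9.92 FPKM in NN salt roots against 4.88 and 3.52 FPKM in theirs. In TX salt roots the 10 day libraries and the controls overlapped for both rows. HORVU3Hr1G112020 had 2.16 and 0.452 FPKM in TX salt roots against 0.352 and 0 FPKM in their controls, and 49.0 and 29.4 FPKM in NN salt roots against 8.29 and 7.49 FPKM in theirs. HORVU3Hr1G002540 had 16.6 and 4.69 FPKM in TX salt roots against 7.58 and 4.02 FPKM in their controls, and 1.84 and 5.49 FPKM in NN salt roots against 20.9 and 20.9 FPKM in theirs. In NN salt roots the second of these rows thus lay below its controls, as under water, and the first above them.

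HvMADS14 (HORVU2Hr1G080490, chromosome 2H) was a row of low level and was not called. It had 1.26 and 1.42 FPKM in TX 2 w roots against 2.94 and 3.82 FPKM in TX controls, and 1.64 and 0.993 FPKM in NN 2 w roots against 2.46 and 2.84 FPKM in NN controls. Every 2 w library lay below every control library. The log2 change was -0.90 ± 0.235 in TX (SE, adjusted p = 0.0253) and -0.67 ± 0.235 in NN (adjusted p = 0.0588, limma), and TX minus NN was -0.23 ± 0.332 (adjusted p = 1). In TX the adjusted p passed and the size did not. With median-ratio scaling the fall was smaller, -0.74 in TX (adjusted p = 0.0459) and -0.44 in NN (adjusted p = 0.204, limma), and neither was called. With a pseudocount of 0.1 the TX change was -1.26 (adjusted p = 0.0268, limma), and with equal totals (TPM) it was -1.11 (adjusted p = 0.0277, limma). It was called in TX with both of these settings. The TX change was also beyond 1 in size without TX control replicate 1 (-1.04) and against control replicate 2 alone (-1.04). Its adjusted p in TX was 0.0773 with the 8 libraries alone in the fit, 0.114 without TX 2 w replicate 1, 0.0659 without TX 2 w replicate 2 and 0.165 without TX control replicate 2 (limma), so the pass rested on each of these 3 libraries. Over time the TX roots averaged 3.38 ± 0.626 FPKM in controls, 3.89 ± 0.353 at 1 h, 2.03 ± 0.151 at 72 h and 1.34 ± 0.113 at 2 w, and the NN roots 2.65 ± 0.265, 3.6 ± 1.41, 0.933 ± 0.282 and 1.32 ± 0.457 FPKM (SD, n = 2 each). In leaves it did not exceed 0.0099 FPKM in any library of the waterlogging experiment.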

How the data were processed

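RNA was taken from roots, oligo(dT)-selected and made into libraries that keep the strand. The authors deposited FPKM values, made with tools that the submitters' notes list as HISAT, HISAT2 and featureCounts 1.5.0, with no roles stated. Genome build: not given in the sources used here. The members and lists were chosen with earlier results of these data known. Of the waterlogging workbook, 82 value columns were not used, 80 of them repeats of the sheet analysed. Counts were not used here, so depth is known only in relative terms.

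Rows with at least 0.5 FPKM in 2 or more of the 16 root libraries were fitted as log2(FPKM + 1) with limma 3.58.1 (R 4.3.3), a mean for each of 8 groups and a trended variance with 8 residual degrees of freedom. Benjamini-Hochberg adjustment ran over all rows tested. Scaling divided each library by the median ratio over 11851 rows above 1 FPKM in all 16 libraries. Named identifiers were the 2 that rose and the 2 that fell with the largest smaller change over both varieties among those called on both scales, plus HvMADS14. The fit was tested on simulated data. The alternatives were scaling, TPM, a pseudocount of 0.1, no filter, a replicate block, the 8 libraries alone, main barley gene identifiers alone and each library left out. Reading both varieties against control replicate 1 or 2 alone was added after seeing the data.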

Additional observations from a re-analysis of the deposited data

Results flagged for a closer look

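The change from control to 2 w differed between TX and NN in 25 rows by the limma test of the difference itself (adjusted p under 0.05 and TX minus NN beyond 1 on the log2 scale). In 18 of the 25 all 4 libraries of one variety were at 0.25 FPKM or less.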

How the results depend on the processing

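Leaving out 1 library at a time gave 597 to 3948 rows called in TX, 1050 to 3049 in NN, 11 to 52 for TX minus NN, 366 to 576 for TX against NN at 2 w and 596 to 726 in controls. It gave 198 to 793 rows higher and 210 to 999 lower in both varieties, 198 to 792 and 146 to 371 where scaling was also required, and an HvMADS14 change in TX of -1.04 to -0.75. With scaling 903 rows were higher and 309 lower in both varieties. With equal totals (TPM) 1123 rows were lower in both and HvMADS14 in TX was at -1.11. A pseudocount of 0.1 gave 3702 rows in NN, 0 for TX minus NN, 1355 lower in both (584 with scaling also required) and HvMADS14 in TX at -1.26. With the 8 libraries alone, and 4 residual degrees of freedom in place of 8, 639 rows were called in TX, 1053 in NN, 0 for TX minus NN and 347 for TX against NN at 2 w, with 171 higher and 216 lower in both (166 and 121 with scaling also required). Against control replicate 2 alone TX had 4206 rows, with 1050 higher and 1313 lower in both (1049 and 553 with scaling also required) and HvMADS14 in TX at -1.04. Against control replicate 1 alone TX had 935 and NN 1592, with 190 higher and 254 lower in both (190 and 146 with scaling also required). The cause of these shifts was not tested. No named row changed sign, but the majority of calls turned round with scaling in NN (70.1% higher with it, 38.1% without) and among the rows called in both varieties. With no filter and with main barley gene identifiers alone, every count stayed within 1.5 times.

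The replicate numbers are no pairing in the labels: of the 6 pairs of groups 4 had replicate deviations correlated above 0.1, from -0.078 to 0.39. The highest was that of the TX and NN controls. A replicate block gave 2314 rows in TX, 2479 in NN and 25 for TX minus NN, and moved no count by 1.5 times.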

Other observations

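Rows with ENSRNA identifiers, an identifier form other than that of the main barley genes, took 0.437% to 1.25% of the FPKM sum of the 8 libraries. They made up 530 of the rows tested. In TX 6 (1.13%) were called higher and 5 (0.943%) lower at 2 w, against 5.13% and 5.04% of all rows tested, and in NN 12 (2.26%) higher and 9 (1.7%) lower, against 4.17% and 6.78%.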
